A study of Mus musculus with 12 samples.

Results

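The genes examined were 10 transcription factors and cofactors that set B cell identity: Pax5, Ebf1, Pou2af1, Pou2f2, Spib, Bcl11a, Ikzf3, Foxo1, Bach2 and Bcl6. They were chosen by gene symbol, all 10 were found among the 28188 genes of the deposited raw count table, and all 10 passed the filter on low counts in each comparison. RNA-seq libraries had been made of splenic B cells and splenic dendritic cells, 12 libraries in 4 groups of 3, from mice that were 12 weeks old. The groups were NOD.Idd2 B cells, NOD B cells, NOD.Idd2 dendritic cells and NOD dendritic cells. NOD is an inbred mouse strain that develops autoimmune diabetes, and NOD.Idd2 mice carry, on the NOD background, an Idd2 locus that comes from B10 mice, with NOD cells as the control. The labels name no treatment or transgene and do not say how the cells were isolated, whether animals were pooled or whether the libraries of a group came from separate mice. The p-values below therefore measure the spread between these libraries, which may be technical.

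B cell identity is built in steps. Ebf1 specifies the lineage in bone marrow progenitors, Foxo1 acts with it, and Pax5 then commits cells by activating B cell genes and repressing genes of other lineages. In mature B cells Pou2f2 (Oct-2) and its coactivator Pou2af1 (OBF-1) act on octamer motifs, Spib is an ETS factor related to PU.1, Ikzf3 (Aiolos) is an Ikaros family zinc finger protein, and Bach2 and Bcl6 are repressors that hold back plasma cell differentiation. Several of these genes are also used by dendritic cells: Bcl11a, Spib and Bach2 belong to regulatory networks of dendritic cell subsets as well.

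Marker genes matched the labelled cell types. B cell markers summed to 16671 to 17085 CPM (counts per 1000000 counts, scaled by TMM over all 12 libraries) in NOD.Idd2 B cells and to 16368 to 17266 CPM in NOD B cells. The same markers summed to 657 to 670.0 CPM in NOD.Idd2 dendritic cells and to 680.2 to 709 CPM in NOD dendritic cells. Markers of conventional dendritic cells summed to 273 to 279 CPM in NOD.Idd2 B cells, 278 to 291 CPM in NOD B cells, 5738 to 6238 CPM in NOD.Idd2 dendritic cells and 5803 to 6308 CPM in NOD dendritic cells. Total counts were 40344883 to 44632276 in the B cell libraries and 8663421 to 30337812 in the dendritic cell libraries, of which NOD.Idd2 dendritic cell replicate 3 was the shallowest. The cell types also differed in the sex of the mice: Xist had 1560 to 2103 CPM in B cells but 1 to 4 counts in each dendritic cell library, while the Y-linked gene Ddx3y had 0 counts in B cells and 235 to 306 CPM in dendritic cells. Cell type and sex cannot be told apart in any comparison of B cells with dendritic cells. The third B cell libraries of both strains stood apart from the other two, with a chi-square per gene of 41.2 to 47.1 against their own replicates, compared with 8.48 between NOD.Idd2 B cell replicates 1 and 2 and 7.93 between NOD B cell replicates 1 and 2.

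Pax5, Ebf1 and Pou2af1 were the factors most restricted to B cells. Pax5, the commitment factor, lies on GRCm38 at chr4:44524757-44710487, minus strand. It had 1696, 1636 and 1822 CPM in NOD.Idd2 B cells, 1693, 1620 and 1782 CPM in NOD B cells, 2.08, 2.51 and 4.35 CPM in NOD.Idd2 dendritic cells, and 2.35, 2.12 and 7.12 CPM in NOD dendritic cells. All B cell libraries were high and all dendritic cell libraries low, and the largest dendritic cell value came from NOD replicate 3. Its log2 fold change, B cells over dendritic cells, was 9.34 (SE 0.38, adjusted p = 1.22e-10) in NOD.Idd2 and 8.76 (SE 0.35, adjusted p = 1.21e-10) in NOD, by the quasi-likelihood test of edgeR, with p-values adjusted over all genes by the Benjamini-Hochberg method. Without NOD dendritic cell replicate 3 the value in NOD was 9.52 (SE 0.20). In bulk RNA, fewer cells of a type and less RNA per cell cannot be told apart, here and in every comparison below.

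Ebf1, the specification factor (chr11:44617317-45008091, plus strand), had 385, 389 and 391 CPM in NOD.Idd2 B cells, 371, 365 and 376 CPM in NOD B cells, 0.751, 0.344 and 1.0 CPM in NOD.Idd2 dendritic cells, and 0.891, 0.617 and 2.35 CPM in NOD dendritic cells. The dendritic cell values rest on 9 to 17 reads in the NOD.Idd2 libraries and 16 to 61 reads in the NOD libraries. Its log2 fold change, B cells over dendritic cells, was 9.35 (SE 0.30, adjusted p = 1.38e-11) in NOD.Idd2 and 8.15 (SE 0.26, adjusted p = 1.39e-11) in NOD by the same edgeR test, and 8.89 (SE 0.19) in NOD without dendritic cell replicate 3. Pou2af1, the octamer coactivator (chr9:51213708-51240080, plus strand), had 486, 476 and 496 CPM in NOD.Idd2 B cells, 519, 495 and 482 CPM in NOD B cells, 2.43, 1.75 and 2.57 CPM in NOD.Idd2 dendritic cells, and 1.62, 1.70 and 3.81 CPM in NOD dendritic cells. As with Pax5 and Ebf1, the highest dendritic cell library was NOD replicate 3. Pou2af1 differed by a log2 fold change of 7.84 (SE 0.23) in NOD.Idd2 and 7.69 (SE 0.22) in NOD, B cells over dendritic cells.

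**Figure D1:**
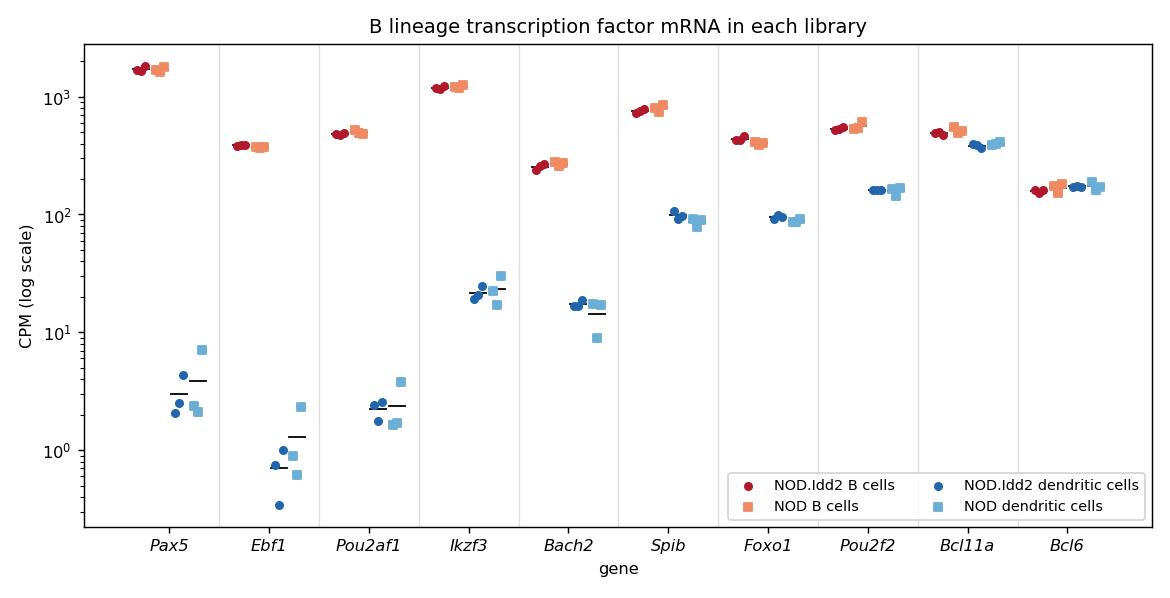
CPM of each of the 10 factors in all 12 libraries, on a log axis, with replicates 1 to 3 from left to right and a black bar at the group mean. Pax5, Ebf1 and Pou2af1 lie below 10 CPM in every dendritic cell library, while Bcl6 lies between 151 and 188 CPM in all 4 groups.

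Ikzf3 and Bach2 were strongly but less completely restricted. Ikzf3 (chr11:98464902-98546031, minus strand) had 1184, 1167 and 1220 CPM in NOD.Idd2 B cells, 1197, 1182 and 1245 CPM in NOD B cells, 19.1, 20.8 and 24.7 CPM in NOD.Idd2 dendritic cells, and 22.4, 17.2 and 30.2 CPM in NOD dendritic cells. The log2 fold change of Ikzf3, B cells over dendritic cells, was 5.82 (SE 0.18) in NOD.Idd2 and 5.69 (SE 0.17) in NOD. Bach2, a repressor of the plasma cell programme (chr4:32238804-32586108, plus strand), had 237, 258 and 267 CPM in NOD.Idd2 B cells, 277, 256 and 276 CPM in NOD B cells, 16.7, 16.6 and 18.7 CPM in NOD.Idd2 dendritic cells, and 17.3, 8.91 and 17.0 CPM in NOD dendritic cells. Its cell types did not overlap, and NOD dendritic cell replicate 2 was the lowest library. For Bach2 the log2 fold change, B cells over dendritic cells, was 3.90 (SE 0.19) in NOD.Idd2 and 4.21 (SE 0.19) in NOD.

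Spib, Foxo1 and Pou2f2 had intermediate levels in dendritic cells. Spib, the ETS factor (chr7:44525993-44532071, minus strand), had 729.7, 754 and 778 CPM in NOD.Idd2 B cells, 795, 744 and 841 CPM in NOD B cells, 106, 92.1 and 96.6 CPM in NOD.Idd2 dendritic cells, and 91.1, 78.9 and 90.2 CPM in NOD dendritic cells. Foxo1, a forkhead factor that responds to PI3 kinase signalling (chr3:52268336-52353221, plus strand), had 433, 427 and 463 CPM in NOD.Idd2 B cells, 413, 390.2 and 406 CPM in NOD B cells, 91.7, 99.2 and 95.7 CPM in NOD.Idd2 dendritic cells, and 86.7, 86.8 and 91.3 CPM in NOD dendritic cells. Pou2f2, the octamer-binding factor (chr7:25087344-25179726, minus strand), had 525, 531 and 553 CPM in NOD.Idd2 B cells, 531, 543 and 612 CPM in NOD B cells, 162, 163 and 162 CPM in NOD.Idd2 dendritic cells, and 165, 144 and 168 CPM in NOD dendritic cells. All 3 genes were higher in every B cell library than in any dendritic cell library. In NOD.Idd2 the fold change, B cells over dendritic cells, was 7.71 for Spib, 4.65 for Foxo1 and 3.33 for Pou2f2. In NOD it was 9.07 for Spib, 4.53 for Foxo1 and 3.50 for Pou2f2.

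Bcl11a and Bcl6 had the smallest differences between the cell types among the 10 factors. Bcl11a, a zinc finger factor needed for early B cell development (chr11:24078056-24174123, plus strand), had 491, 505 and 473 CPM in NOD.Idd2 B cells, 549.9, 492 and 515 CPM in NOD B cells, 396, 389 and 363 CPM in NOD.Idd2 dendritic cells, and 391, 397 and 409 CPM in NOD dendritic cells. The cell types did not overlap, and the difference was small: a log2 fold change of 0.36 (SE 0.05, adjusted p = 2.30e-05) in NOD.Idd2 and 0.37 (SE 0.05, adjusted p = 2.02e-05) in NOD by edgeR's test, B cells over dendritic cells. Bcl6, the germinal centre repressor (chr16:23965052-23988852, minus strand), had 162, 152 and 162 CPM in NOD.Idd2 B cells, 174, 151 and 183 CPM in NOD B cells, 173, 175 and 171 CPM in NOD.Idd2 dendritic cells, and 188, 161 and 169.8 CPM in NOD dendritic cells. In NOD the cell types overlapped, whereas in NOD.Idd2 each B cell library was below each dendritic cell library. Bcl6 did not pass the test in either strain: its log2 fold change was -0.11 (SE 0.07, 95% interval -0.27 to 0.05, adjusted p = 0.187) in NOD.Idd2 and -0.04 (SE 0.07, 95% interval -0.20 to 0.12, adjusted p = 0.616) in NOD. When only the 6 NOD.Idd2 libraries were fitted, the Bcl6 value was -0.15 (SE 0.05) and passed, with an adjusted p of 0.0224.

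In all, 9 of the 10 factors were higher in B cells than in dendritic cells in NOD.Idd2, and the same 9 in NOD, with Bcl6 as the exception in both. The background was high. In NOD.Idd2, 75.7% of the 16588 genes tested were called, 38.9% as higher and 36.7% as lower in B cells. In NOD, 76.4% were called, 38.7% as higher and 37.7% as lower. The libraries of the cell types did not overlap in CPM for all 10 factors in NOD.Idd2 and for 9 of 10 in NOD, beside 77.3% of all genes in NOD.Idd2 and 77.6% in NOD. The median log2 fold change of the 10 factors was 3.42 in NOD.Idd2, beside 0.06 over all genes tested, and 3.70 in NOD, beside 0.04 over all genes tested. The 10 genes were picked as B cell identity factors, so these counts describe them and do not set them apart from other B cell genes. The number called higher was 9 in each strain under every alternative processing, including fits without the third B cell libraries.

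RefSeq promoter windows on GRCm38.p6, which run from 250 bases before to 50 bases after a start site, were held for 9 of the 10 factors, with 11 windows in all. Shown are the factor with the lowest share of its B cell level in dendritic cells (Pax5), the factor whose window holds an EBF motif (Foxo1, motif in capitals) and the factor with like levels in both cell types (Bcl6). The windows are Pax5 chr4:44710645-44710944 on the minus strand, Foxo1 chr3:52268087-52268386 on the plus strand and Bcl6 chr16:23988803-23989102 on the minus strand, each written 5′ to 3′.
Pax5: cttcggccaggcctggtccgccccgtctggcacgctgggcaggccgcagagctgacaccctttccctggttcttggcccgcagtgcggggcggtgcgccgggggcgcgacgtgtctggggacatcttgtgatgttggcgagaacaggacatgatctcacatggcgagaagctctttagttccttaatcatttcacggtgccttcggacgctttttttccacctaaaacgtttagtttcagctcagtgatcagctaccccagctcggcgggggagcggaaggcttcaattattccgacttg
Foxo1: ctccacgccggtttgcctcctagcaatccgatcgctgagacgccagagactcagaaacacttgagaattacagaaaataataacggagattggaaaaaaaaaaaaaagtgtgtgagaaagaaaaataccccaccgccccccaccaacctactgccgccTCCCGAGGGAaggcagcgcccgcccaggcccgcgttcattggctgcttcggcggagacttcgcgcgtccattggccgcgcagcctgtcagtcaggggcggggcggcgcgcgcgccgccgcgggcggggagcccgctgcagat
Bcl6: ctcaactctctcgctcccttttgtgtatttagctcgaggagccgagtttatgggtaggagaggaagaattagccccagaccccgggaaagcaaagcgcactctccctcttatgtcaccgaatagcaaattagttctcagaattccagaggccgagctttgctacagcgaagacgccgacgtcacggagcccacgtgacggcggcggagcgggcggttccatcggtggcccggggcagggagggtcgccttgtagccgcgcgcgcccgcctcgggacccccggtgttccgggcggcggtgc
The Bcl6 window shown held 31 CpG dinucleotides, as did that of Foxo1, and that of Pax5 held 23. The other Bcl6 window held 14, and that of Spib, the lowest of the 11, held 2. The median was 14 over the 11 windows of the factors and 7 over all 32851 promoter windows. The EBF motif, searched as TCCC, any 2 bases and GGGA on both strands, was found in 1 of the 11 windows, that of Foxo1 at base -92 from the start site, and in 0.904% of all windows. The octamer ATGCAAAT (1.74% of all windows), the ETS motif GAGGAAGT (3.20%) and the FOXO motif GTAAACA (3.65%) were in 0 of the 11 windows. An E-box, searched as CANNTG, was in 8 of the 11 and in 72.3% of all windows. These matches describe the letters of the windows only.

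The lowest dendritic cell levels were set beside those of B cell marker genes in the same libraries. In NOD.Idd2 dendritic cells, Pax5 stood at 0.173% of its NOD.Idd2 B cell level, Ebf1 at 0.180% and Pou2af1 at 0.463%. Beside them, 3 of the markers with the lowest shares were chosen after their values were seen: Cd79a, a subunit of the B cell receptor, stood at 0.156% there, the receptor for IgM Fcmr at 0.208% and Ms4a1 (CD20) at 0.401%. In NOD dendritic cells the shares of the NOD B cell level were 0.227% for Pax5, 0.347% for Ebf1 and 0.476% for Pou2af1, and 0.264% for Cd79a, 0.251% for Fcmr and 0.501% for Ms4a1. In NOD.Idd2, Pax5 and Ebf1 lay within the range of these 3 markers and Pou2af1 above it, and in NOD, Ebf1 and Pou2af1 lay within it and Pax5 below it. Other markers on the list had higher shares in NOD.Idd2 dendritic cells: Fcer2a 0.786%, Cd79b 1.13%, Cr2 2.01%, Blk 5.92%, Cd37 9.38% and Cd22 20.9%.

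NOD dendritic cell replicate 3 was the highest NOD dendritic cell library for 7 of the 10 factors and 7 of the 10 B cell markers. The share of all genes highest in that library was not computed. Among the 7 factors the lead was small for Pou2f2, at 29.9% of its NOD B cell mean beside 29.4% in replicate 1. It was also small for Foxo1 (22.7% beside 21.5% in replicate 2) and Bcl11a (78.7% beside 76.4% in replicate 2). In the 3 NOD dendritic cell libraries, Pax5 stood at 0.138%, 0.125% and 0.419% of its NOD B cell mean, and Cd79a at 0.200%, 0.124% and 0.468%. Both genes were lowest in replicate 2 and highest in replicate 3, and the part of B cell RNA in the dendritic cell values of Pax5, Ebf1 and Pou2af1 was not tested. In NOD.Idd2 dendritic cells Ikzf3 was at 1.81% of its B cell level, Bach2 at 6.83% and Spib at 13.1%, shares within the span of the B cell markers. Foxo1 at 21.7%, Pou2f2 at 30.2%, Bcl11a at 78.2% and Bcl6 at 109% were above Cd22, the marker with the highest share (20.9% in NOD.Idd2 and 21.1% in NOD).

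**Figure D2:**
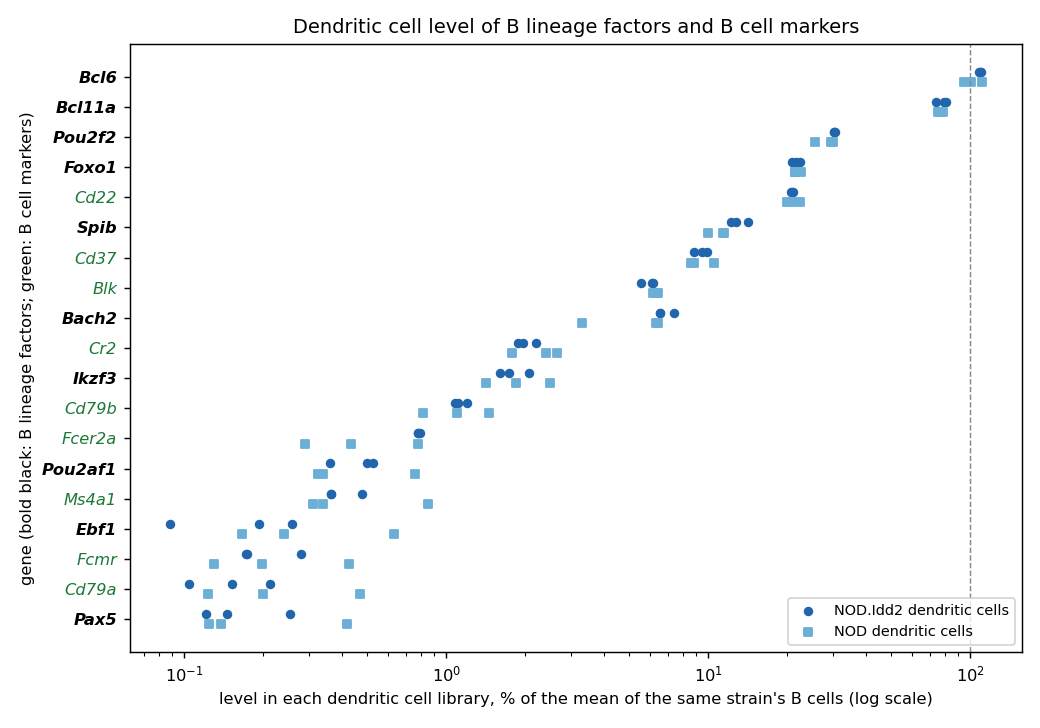
Level of the 10 factors (bold) and of 9 B cell markers (green) in each dendritic cell library, as a percent of the mean of the same strain's 3 B cell libraries, on a log axis. Pax5, Ebf1 and Pou2af1 lie below 1% in every dendritic cell library, while Bcl6 lies near 100%, marked by the dashed line.

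Levels were compared between genes as CPM per kb of exon. In NOD.Idd2 B cells Spib was highest at 263 ± 8.37 CPM per kb (SD, n = 3), followed by Pax5 at 194 ± 10.7 and Pou2af1 at 191 ± 3.82, whose libraries overlapped, and by Ikzf3 at 136 ± 3.11. Pou2f2 had 65.1 ± 1.83, Foxo1 50.9 ± 2.23, Ebf1 39.8 ± 0.313, Bcl11a 37.2 ± 1.21, Bach2 25.6 ± 1.52 and Bcl6 23.7 ± 0.877 CPM per kb, and of these neighbours Bach2 and Bcl6 overlapped. In NOD B cells the order was the same except within overlapping neighbours, where Pou2af1 (196 ± 7.34) stood above Pax5 (192 ± 9.16) and Bcl11a (39.4 ± 2.23) above Ebf1 (38.0 ± 0.576). In NOD.Idd2 dendritic cells Spib (34.3 ± 2.56), Bcl11a (29.1 ± 1.31) and Bcl6 (25.8 ± 0.294) led, and Ebf1 was last at 0.0717 ± 0.0342 CPM per kb. In NOD dendritic cells the same 3 genes led, Bcl11a at 30.3 ± 0.665, Spib at 30.2 ± 2.36 and Bcl6 at 25.8 ± 2.02 CPM per kb, and the libraries of Bcl11a and Spib overlapped, as did those of Spib and Bcl6.

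Paralogs of the factors were split between directions. Of 19 listed paralogs, 15 were matched by symbol and 12 passed the filter on low counts. In each strain 6 of these were higher in B cells, 5 were lower and 1, Bcl11b, did not pass. All genes split between directions as well, with 38.9% higher and 36.7% lower in NOD.Idd2 and 38.7% higher and 37.7% lower in NOD. The split therefore does not set the paralogs apart. Spi1 (PU.1), the ETS paralog of Spib and a factor of myeloid cells and dendritic cells, had 67.5, 61.5 and 67.0 CPM in NOD.Idd2 B cells, 67.4, 57.8 and 68.2 CPM in NOD B cells, 337, 337 and 326 CPM in NOD.Idd2 dendritic cells, and 397, 364 and 351 CPM in NOD dendritic cells. Its log2 fold change, B cells over dendritic cells, was -2.34 (SE 0.07) in NOD.Idd2 and -2.54 (SE 0.07) in NOD, the opposite sign to Spib. Bach1 likewise ran opposite to Bach2, with -1.97 (SE 0.07) in NOD.Idd2 and -2.04 (SE 0.07) in NOD. Spic, an ETS factor of red pulp macrophages, had -1.16 in NOD.Idd2 and -1.28 in NOD.

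In the Ikaros family, Ikzf3 stood far above its relatives in the size of the difference. Ikzf1 (Ikaros), which had 753 to 806 CPM in NOD.Idd2 B cells and 611 to 636 CPM in NOD.Idd2 dendritic cells, had a log2 fold change of 0.33 (SE 0.04) in NOD.Idd2 and 0.27 (SE 0.04) in NOD, B cells over dendritic cells. Ikzf5 had 0.67 in NOD.Idd2 and 0.66 in NOD, whereas Ikzf2 (Helios) had -2.66 in NOD.Idd2 and -2.42 in NOD, and Ikzf4 (Eos) -3.45 in NOD.Idd2 and -3.51 in NOD. Pou2f1 (Oct-1), the broadly expressed paralog of Pou2f2, was higher in B cells by a log2 fold change of 1.66 (SE 0.06) in NOD.Idd2 and 1.70 (SE 0.06) in NOD, beside 1.74 in NOD.Idd2 and 1.81 in NOD for Pou2f2. Foxo4 had 0.87 in NOD.Idd2 and 0.96 in NOD, and Foxo3 0.34 in NOD.Idd2 and 0.18 in NOD, beside 2.22 in NOD.Idd2 and 2.18 in NOD for Foxo1. Bcl6b, the paralog of Bcl6, was called higher in B cells in both strains at low levels, 1.10 to 1.32 CPM in NOD.Idd2 B cells and 1.17 to 1.54 CPM in NOD B cells, with 1 or 2 counts in each dendritic cell library.

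**Figure D3:**
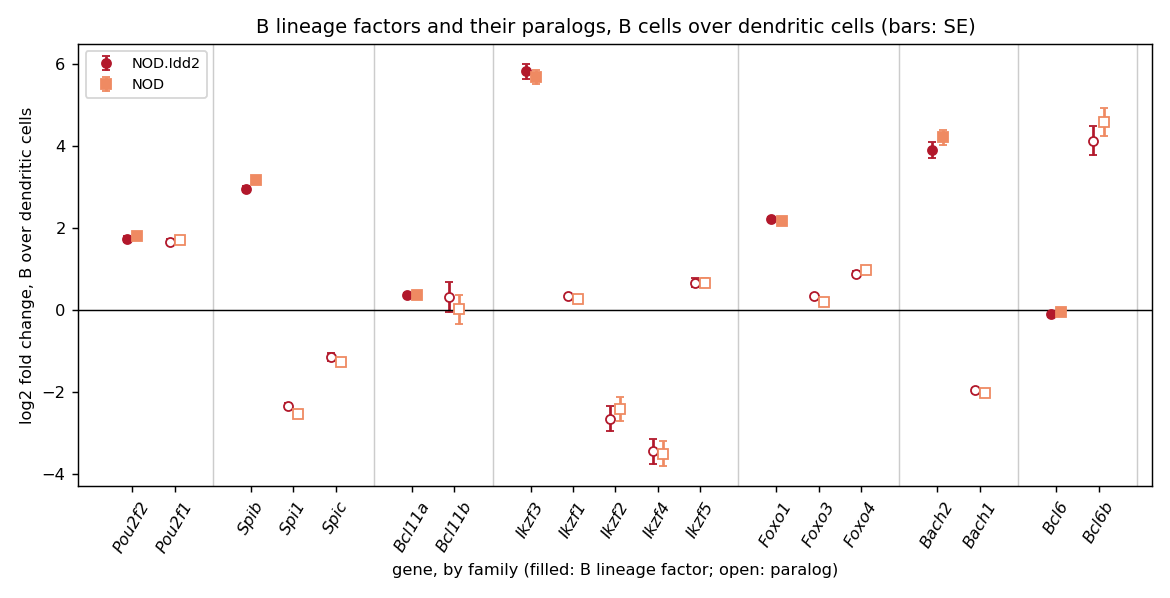
Log2 fold change, B cells over dendritic cells, of each factor with a tested paralog (filled) and of its paralogs (open), with SE bars, in NOD.Idd2 and NOD. Spib and Spi1, Bach2 and Bach1, and Ikzf3 and Ikzf4 lie on opposite sides of 0.

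Nearly all genes known to be activated by Pax5 and Ebf1 were higher in B cells. Of 18 such genes, all of them tested, 17 were higher in B cells and 0 lower in NOD.Idd2, and 17 were higher and 1 lower in NOD. Over all genes 38.9% were called higher in NOD.Idd2 and 38.7% in NOD. Their median log2 fold change was 6.08 in NOD.Idd2, beside 0.06 over all genes, and 6.09 in NOD, beside 0.04 over all genes, and 8 of the 18 were also on the list of B cell markers. Blk, a Src family kinase, had 4.08 (SE 0.06) in NOD.Idd2 and 3.98 (SE 0.06) in NOD. Bank1, a B cell scaffold protein, had 4.34 (SE 0.06) in NOD.Idd2 and 4.19 (SE 0.06) in NOD. Cd72, an inhibitory coreceptor of B cells, had a smaller difference of 2.45 (SE 0.05) in NOD.Idd2 and 1.92 (SE 0.05) in NOD.

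Of 11 genes known to be repressed by Pax5, 10 were tested, and in each strain 6 were lower in B cells and 2 higher. Over all genes 36.7% were called lower and 38.9% higher in NOD.Idd2, and 37.7% lower and 38.7% higher in NOD. Flt3, the receptor of a growth factor for dendritic cells and progenitors, had 1.83 to 2.42 CPM in NOD.Idd2 B cells, 1.83 to 2.68 CPM in NOD B cells, 679 to 710 CPM in NOD.Idd2 dendritic cells, and 631 to 698 CPM in NOD dendritic cells. Its log2 fold change, B cells over dendritic cells, was -8.38 (SE 0.13) in NOD.Idd2 and -8.23 (SE 0.13) in NOD. Csf1r, the receptor of macrophage colony stimulating factor, had -6.88 in NOD.Idd2 and -6.35 in NOD, and Cd33, a sialic acid binding lectin of myeloid cells, -5.89 in NOD.Idd2 and -5.44 in NOD. Grap2, an adaptor of T cell receptor signalling, and Notch1 went the other way: Grap2 had 1.44 in NOD.Idd2 and 1.67 in NOD, and Notch1 1.05 in NOD.Idd2 and 1.71 in NOD. Flt3 is also on the list of conventional dendritic cell markers, Csf1r and Ccr2 on that of macrophage markers and Cd28 on that of T cell markers.

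Of 11 targets of Foxo1 in lymphocytes, 10 were tested, and 8 were higher and 1 lower in B cells in each strain. Over all genes 38.9% were called higher in NOD.Idd2 and 38.7% in NOD. S1pr1, the sphingosine phosphate receptor that governs egress from lymphoid tissue, had a log2 fold change of 6.74 (SE 0.24) in NOD.Idd2 and 6.29 (SE 0.23) in NOD, B cells over dendritic cells. Klf2, a factor of lymphocyte trafficking, had 3.07 in NOD.Idd2 and 2.97 in NOD. Il7r, the receptor of a cytokine of lymphocyte progenitors, was lower in B cells, with -2.81 in NOD.Idd2 and -3.05 in NOD.

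Other transcription factors of the B lineage were mixed in direction, as were germinal centre and plasma cell genes. Their counts stand beside 38.9% of all genes higher and 36.7% lower in NOD.Idd2, and 38.7% higher and 37.7% lower in NOD. Of 21 tested, 13 were higher and 6 lower in B cells in NOD.Idd2, with a median log2 fold change of 0.54, and 14 were higher and 5 lower in NOD, with a median of 1.11. Ets1 had 5.34 (SE 0.13) in NOD.Idd2 and 5.54 (SE 0.13) in NOD, and Id3, an inhibitor of E proteins, 6.80 (SE 0.19) in NOD.Idd2 and 6.03 (SE 0.17) in NOD. Etv6 had -2.53 in NOD.Idd2 and -2.55 in NOD, and Relb, a subunit of NF-kB used by dendritic cells, -2.48 in NOD.Idd2 and -2.72 in NOD. Among 8 tested germinal centre genes, 4 were higher and 2 lower in NOD.Idd2, and 5 higher and 2 lower in NOD. Gcsam, an adaptor of germinal centre B cells, had -4.39 in NOD.Idd2 and -4.21 in NOD, and the base excision repair gene Neil1 1.26 in NOD.Idd2 and 1.15 in NOD. Among 11 tested genes of the plasma cell programme, 5 were higher and 2 lower in NOD.Idd2, and 8 higher and 1 lower in NOD. Mzb1, a chaperone cofactor of antibody secretion, had 7.96 (SE 0.26) in NOD.Idd2 and 8.86 (SE 0.26) in NOD, and Slamf7 had -2.42 in NOD.Idd2 and -2.47 in NOD.

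**Figure D4:**
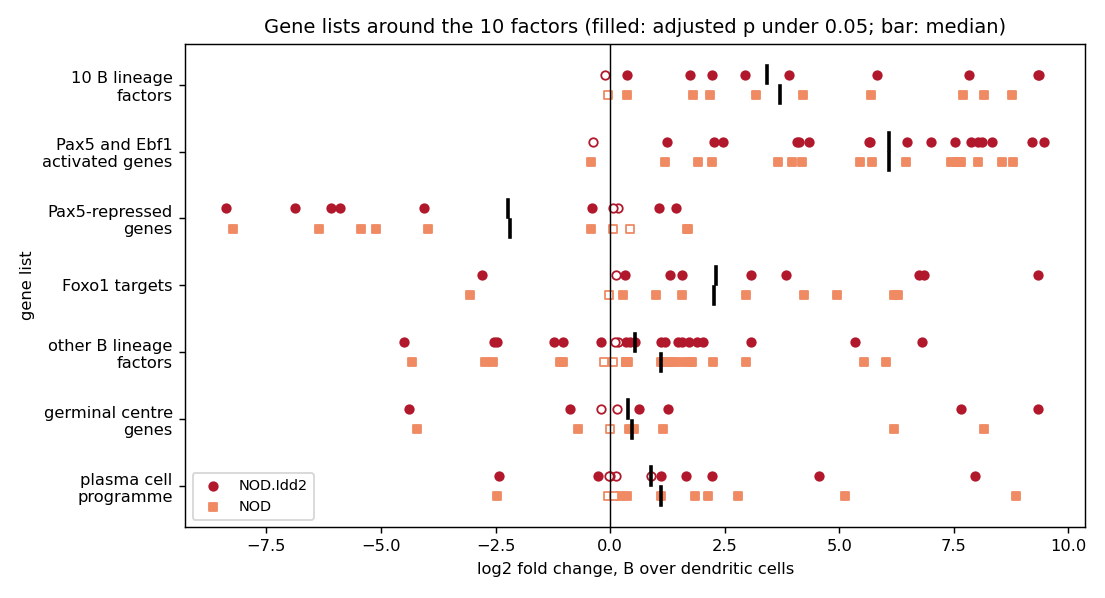
Log2 fold change, B cells over dendritic cells, of each tested gene of 7 lists in NOD.Idd2 and NOD; filled points passed the adjusted p threshold of 0.05 and the black bars are list medians. The 10 factors and the genes activated by Pax5 and Ebf1 lie mostly right of 0, and the Pax5-repressed genes have medians of -2.24 in NOD.Idd2 and -2.19 in NOD.

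In B cells, 0 of the 10 factors passed the test between NOD.Idd2 and NOD, where 0.160% of the 15011 genes tested were called by edgeR. Over all genes 24 were called and 961 had an unadjusted p under 0.05, and no factor was called with DESeq2 either, which called 122 genes. The largest difference among the factors was in Foxo1, whose 3 NOD.Idd2 B cell libraries (427 to 463 CPM) all lay above the 3 NOD B cell libraries (390.2 to 413 CPM). Its log2 fold change, NOD.Idd2 over NOD, was 0.14 (SE 0.05), a difference of 10.1% with a 95% interval of 1.56% to 19.4%, and its p was 0.0260 before and 0.750 after adjustment over all genes. A fit that blocked on the replicate number called 1.04% of genes and none of the factors, and its adjusted p for Foxo1 was 0.0925. Without the third libraries of both strains the value of Foxo1 was 0.10. Beside this, T cell markers summed to 107 to 199 CPM in NOD.Idd2 B cells and 129 to 145 CPM in NOD B cells, and 12 of 14 had a log2 fold change above 0, with a median of 0.21. Of the markers of other cells, none of them called, 0 of 10 natural killer cell markers were above 0 (median -0.45), 0 of 6 neutrophil markers (median -1.18), 0 of 5 erythroid markers (median -0.51) and 2 of 12 macrophage and monocyte markers (median -0.30), beside a median of 0.01 over all genes. Over all genes tested in this comparison, 52.6% had a value above 0. The part of T cells and these other cells in the Foxo1 value was not tested. Foxo1 lies on chromosome 3, and genes called between strains near it were not examined. No gene on the marker lists was called between strains in B cells or in dendritic cells in the fits reported here. With the replicate block, Gzma, Adgre1 and Chil3 passed in B cells and Ccr2, Cd209a and Clec10a in dendritic cells.

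Ebf1 was the only other factor whose B cell libraries did not overlap between strains, with 385 to 391 CPM in NOD.Idd2 and 365 to 376 CPM in NOD. Its log2 fold change was 0.08 (SE 0.04, adjusted p = 0.793), and it was also 0.08 without the third libraries of both strains. Libraries that do not overlap in CPM were found for 2 of the 10 factors and for 13.0% of all genes tested. The other 8 factors overlapped, and their log2 fold changes, NOD.Idd2 over NOD, lay between -0.08 for Bcl6 and 0.03 for Pax5. The 95% intervals of the percent change bounded these differences: they reached -16.3% at the lowest, for Bcl6, and 19.4% at the highest, for Foxo1. For Pax5 the interval was -7.47% to 12.1%, for Pou2af1 -8.67% to 5.44% and for Ikzf3 -7.36% to 6.18%. The median log2 fold change of the 10 factors was -0.04, beside 0.01 over all genes.

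**Figure D5:**
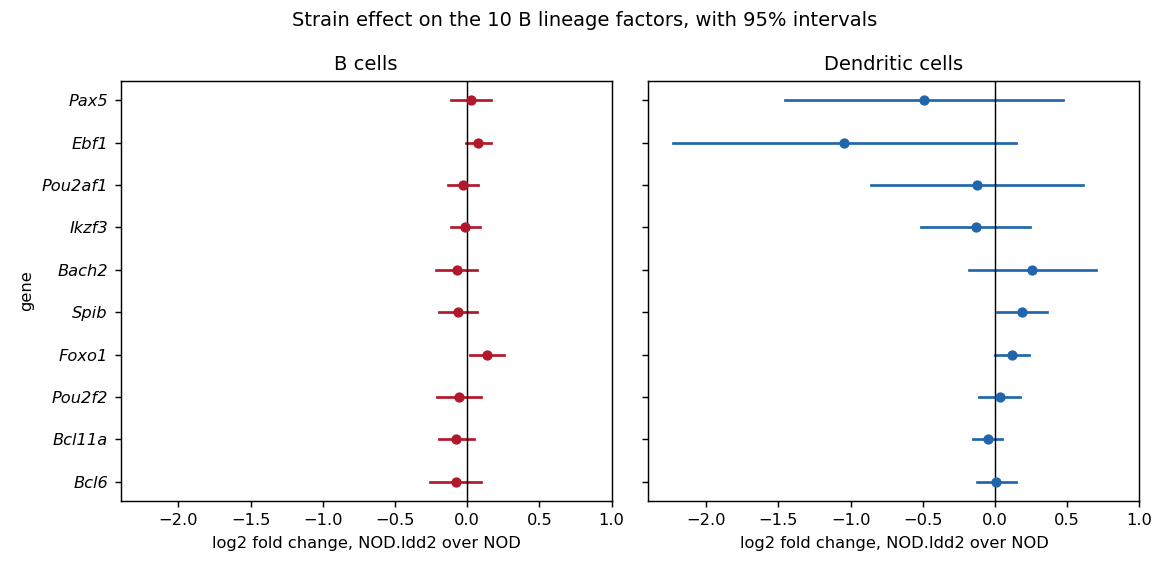
Log2 fold change, NOD.Idd2 over NOD, of the 10 factors with 95% intervals, in B cells (left) and dendritic cells (right). The B cell intervals are narrow, and those of Pax5 and Ebf1 in dendritic cells are wide; 0 of the 10 factors passed the adjusted threshold in either cell type.

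In dendritic cells, 0 of the 10 factors passed the test between NOD.Idd2 and NOD either, where 1.29% of the 14441 genes tested were called by edgeR. Of all genes, 1638 had an unadjusted p under 0.05, and DESeq2 called 296 genes and 0 of the factors. The fit with the replicate block called 1.48% of genes and 0 of the factors. Spib libraries did not overlap, with 92.1 to 106 CPM in NOD.Idd2 and 78.9 to 91.1 CPM in NOD, and its log2 fold change was 0.19 (SE 0.08, adjusted p = 0.379). Foxo1 libraries did not overlap either, with 91.7 to 99.2 CPM in NOD.Idd2 and 86.7 to 91.3 CPM in NOD, and a log2 fold change of 0.12 (SE 0.05, adjusted p = 0.427). Libraries that do not overlap were found for 2 of the 10 factors and for 14.5% of all genes tested. The Foxo1 difference, NOD.Idd2 over NOD, was 10.1% in B cells and 8.48% in dendritic cells, with neither past the adjusted threshold.

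Ebf1 and Pax5 had wide intervals in dendritic cells. Ebf1 had a log2 fold change of -1.05 (SE 0.54, 95% interval -2.23 to 0.14, adjusted p = 0.514), NOD.Idd2 over NOD, and Pax5 one of -0.49 (SE 0.44, 95% interval -1.45 to 0.47, adjusted p = 0.753). Without NOD dendritic cell replicate 3, Ebf1 had -0.29 (SE 0.46) and Pax5 0.29 (SE 0.29). That library was the highest of the NOD dendritic cell libraries for 7 of the 10 B cell markers, with no share over all genes computed. The marker sums were close, at 680.2 CPM in replicate 1, 707.5 CPM in replicate 2 and 709 CPM in replicate 3. They include Cd22 and Cd37, with means of 427 and 103 CPM in NOD dendritic cells, both lowest in replicate 3. Close sums therefore do not show like levels of each marker. Over replicates 1 to 3, Cd79a stood at 0.200%, 0.124% and 0.468% of its NOD B cell mean. Ms4a1 stood at 0.340%, 0.312% and 0.852%. For factors with more reads the intervals were narrower: Pou2f2 lay between -7.22% and 12.7%, Bcl11a between -10.0% and 3.44%, and Bcl6 between -8.51% and 10.4%.

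The strain effect in B cells minus that in dendritic cells was called for 0 of the 10 factors, beside 0.109% of 16588 genes. That is 18 genes by edgeR, with 1363 at an unadjusted p under 0.05 and 114 called by DESeq2. The fit with the replicate block called 0.338% of genes and 0 of the factors. It was largest for Ebf1, at 1.20 (SE 0.51, adjusted p = 0.572), and it was 0.42 without NOD dendritic cell replicate 3 and 0.84 with the replicate block. Spib had -0.23 (SE 0.11, adjusted p = 0.605), with a strain effect of -0.06 in B cells and 0.19 in dendritic cells on the log2 scale. Foxo1 had 0.04 (SE 0.06). These values share libraries with the strain comparisons within each cell type. Cell type and sex cannot be told apart in them either.

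Among genes that the factors are known to regulate, 2 were called between strains in the fits reported here, both in dendritic cells. In B cells, 0 of the 18 genes activated by Pax5 and Ebf1, 0 of the 10 tested genes repressed by Pax5 and 0 of the 10 tested Foxo1 targets were called. The median log2 fold change, NOD.Idd2 over NOD, was 0.02 for the activated genes, 0.01 for the repressed genes and 0.11 for the Foxo1 targets. In dendritic cells 1 of 17 tested activated genes was called lower (Cd72), 1 of 10 repressed genes higher (Cd33) and 0 of 8 Foxo1 targets either way, beside 1.29% called over all genes. The median there was -0.13 for the activated genes, with 3 of 17 above 0. For the repressed genes it was 0.25, with 10 of 10 above 0. Over all genes tested in dendritic cells, 50.2% had a value above 0. NOD replicate 3 was the highest NOD dendritic cell library for 11 of the 18 activated genes, with no share over all genes computed. The part of that library in these medians was not tested. With the replicate block Ccr2, a chemokine receptor on the repressed list, was also called higher. In dendritic cells Cd72 was lower in NOD.Idd2, with 67.6, 75.0 and 66.1 CPM in NOD.Idd2 and 93.7, 96.2 and 94.4 CPM in NOD, and a log2 fold change of -0.44 (SE 0.05, adjusted p = 0.00130). Cd33 was higher in NOD.Idd2 dendritic cells, with 60.5, 54.5 and 55.5 CPM in NOD.Idd2 and 39.4, 33.7 and 33.7 CPM in NOD, and a log2 fold change of 0.68 (SE 0.08, adjusted p = 0.00158). Neither gene overlapped between strains, and both were past the threshold under every alternative run, with the largest adjusted p at 0.0143 for Cd72 and 0.0211 for Cd33. Beside these genes, B cell markers summed to 657 to 670.0 CPM in NOD.Idd2 and 680.2 to 709 CPM in NOD dendritic cells, and macrophage and monocyte markers to 1286 to 1380 CPM in NOD.Idd2 and 1105 to 1254 CPM in NOD dendritic cells. The part of other cells in the Cd72 and Cd33 values was not tested.

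Pou2af1 is the factor on chromosome 9, which carries Idd2, and the bounds of the introgressed segment are not used here. On this chromosome 10 genes were called between strains in B cells and 20 in dendritic cells. The called gene nearest to Pou2af1 lay 2.78 Mb away in B cells, Nxpe1-ps, and 2.38 Mb away in dendritic cells, Zbtb16. Pou2af1 differed by a log2 value of -0.03 (SE 0.04, adjusted p = 0.977) in B cells and -0.12 (SE 0.34, adjusted p = 0.931) in dendritic cells, NOD.Idd2 over NOD.

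Within B cells, the third libraries shifted less from replicates 1 and 2 in the factors than over all genes, by the median. Relative to the mean of replicates 1 and 2, replicate 3 was higher for 9 of the 10 factors in NOD.Idd2 and for 8 of 10 in NOD. The share of all genes that were higher in replicate 3 was not computed, so these counts do not set the factors apart. The median absolute log2 shift of the factors was 0.07 in both strains, beside 0.12 over all genes in NOD.Idd2 and 0.13 in NOD. Pax5 had the largest shift of the 10 factors in NOD.Idd2, with 1822 CPM in replicate 3 against 1696 and 1636 CPM in replicates 1 and 2. Over the 6 B cell libraries the Pearson correlation of each factor's log2 CPM with the mean of the other 9 ranged from -0.06 for Ebf1 to 0.86 for Spib, with 0.82 for Bcl6. Over all 12 libraries it was 0.95 to 0.99 for the 9 factors called between cell types and -0.39 for Bcl6. These are descriptions over libraries that share cell type and depth.

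By the same measure, the genes outside the list most like the factors over all 12 libraries were Plec (r = 0.996), Afap1, Dnah8, Xylt1, Zfp7 and Ahdc1. In all, 168 genes had r above 0.99, and over the 12 libraries the measure follows the difference between cell types. Over the 6 B cell libraries the nearest were Lrrc8a (r = 0.99), Fchsd2, Kctd5, Acads, Tor2a and Ppm1d. Fchsd2 had mean levels of 458 CPM in NOD.Idd2 B cells and 471 CPM in NOD B cells, and Plec had 225 CPM in NOD.Idd2 B cells and 238 CPM in NOD B cells.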

How the data were processed

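Per the labels' protocols, RNA came from a Trizol extraction and libraries from a KAPA HyperPrep kit for poly(A) RNA. STAR 0.12.2 and the build GRCm38 are named, per the submitters' processing notes. The counter, its annotation and its use of strand were not given in the sources used here. Hence reads of a gene and of an overlapping gene cannot be told apart, and the genes that overlap a factor in position reached at most 5.04 CPM. The authors deposited raw counts per gene symbol for the 12 libraries; their normalized table was not used. Groups came from the sample titles.

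Counts were tested with edgeR 4.0.16 under R 4.3.3 (quasi-likelihood, TMM, filterByExpr with minimum count 10 and minimum total 15, Benjamini-Hochberg over all genes, threshold 0.05). Strain comparisons used the 6 libraries of a cell type, and the other 3 comparisons used all 12 libraries in 4 groups. A log2 fold change has the group named first on top. SE is the log2 fold change over the square root of F, and intervals are at 95%. The script was tested on simulated data. Exon lengths came from the union of GENCODE exons on GRCm38, and promoter windows from RefSeq. CPM printed used TMM over the 12 libraries. Ebf1, Pax5 and Pou2af1, with the fewest reads in dendritic cells, had the largest SE there.

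The alternatives were DESeq2 1.42.0, other scaling factors and filters, a replicate block, a pooled or separate fit and each library left out. All 10 factors, all paralogs and up to 4 called genes per list with the smallest p were named, with the 6 most alike genes. Genes with 1 to 3 counts in a group were named by level only, Grap2 and Notch1 were added after their values were seen, as were B cell markers beside the factors and Mzb1, Neil1 and Cd72 in some comparisons. Values of a few named genes are not reported here. The factors, lists and tests were chosen with earlier results of these data known. Replicate numbers run from 1 to 3 in each group, with no pairing stated. Deviations of same-numbered B cell libraries of the 2 strains correlated at 0.520, 0.328 and 0.754, and those of dendritic cell libraries at 0.0129, 0.0177 and 0.0616. NOD.Idd2 B cell replicate 1 also correlated with NOD replicate 2 at 0.397, and NOD.Idd2 replicate 2 with NOD replicate 1 at 0.356. The third B cell libraries correlated with replicates 1 and 2 of the other strain at -0.617 to -0.459. These B cell values set the third libraries apart and do not show a pairing by number. The fits reported have no block, and the fit with a block was run as an alternative in both cell types.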

Additional observations from a re-analysis of the deposited data

Results flagged for a closer look

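The strain effect differed between B cells and dendritic cells for 1 gene of the lists around the factors. These libraries also differed in the sex of the mice, so cell type and sex cannot be told apart in this difference. Cd72, an inhibitory coreceptor of B cells and a gene activated by Pax5, had a strain effect in B cells minus that in dendritic cells of 0.53 on the log2 scale (SE 0.06, adjusted p = 0.00574 by edgeR's quasi-likelihood test). In B cells it had 369, 386 and 382 CPM in NOD.Idd2 and 346, 370 and 373 CPM in NOD, a log2 fold change of 0.07 (SE 0.05, adjusted p = 0.862). In dendritic cells all 3 NOD.Idd2 libraries lay below all 3 NOD libraries, with a log2 fold change of -0.44. Over the alternatives the difference between cell types ranged from 0.50 to 0.55, and its adjusted p reached 0.0496 at most.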

How the results depend on the processing

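Over all alternatives, 0 of the 10 factors were called between strains in B cells, in dendritic cells or in the difference of the 2, and 9 were called higher in B cells in each strain. With a filter of at least 1 CPM in 3 libraries, Ebf1 was not tested in dendritic cells, which left 9 factors there. The only call of a factor that changed was that of Bcl6 in NOD.Idd2, described above. The replicate block changed no factor's call. It gave 156 called genes in B cells, against 24 without it, and 56 for the difference between cell types, against 18. In B cells DESeq2 called 122 genes, the fit of all 12 libraries 42 and the fit without both B cell replicate 3 libraries 46, and leaving out 1 library gave 13 to 18. In dendritic cells, with 186 in the fit reported, DESeq2 called 296 genes, no filter on low counts 700, the fit of all 12 libraries 94, and leaving out 1 library 63 to 332. For the difference, DESeq2 called 114 genes, no filter 33, and leaving out 1 library 7 to 19. The cause was not tested.

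Values near 0 changed sign. Under the block, Pou2af1 had 0.042 in dendritic cells and -0.055 for the difference between cell types. Bcl6 had -0.0088 in dendritic cells in the fit of all 12 libraries, and 0.0017 for NOD B cells over NOD dendritic cells with library size alone. For NOD B cells over NOD dendritic cells, Bcl11b had -0.0060 with DESeq2, -0.0062 with RLE factors and -0.010 in the fit of the 6 libraries compared. Bcl11a had 0.0068 for the difference without both B cell replicate 3 libraries. Leaving out 1 library, ranges that crossed 0 were, in B cells between strains, -0.023 to 0.064 for Pax5, -0.11 to 0.0088 for Pou2f2 and -0.035 to 0.012 for Ikzf3. In dendritic cells they were -0.80 to 0.29 for Pax5, -0.33 to 0.38 for Pou2af1, -0.039 to 0.069 for Pou2f2, -0.32 to 0.091 for Ikzf3 and -0.045 to 0.077 for Bcl6. For NOD B cells over NOD dendritic cells they were -0.098 to 0.039 for Bcl6 and -0.20 to 0.20 for Bcl11b, and for NOD.Idd2 B cells over NOD.Idd2 dendritic cells -0.20 to 0.63 for Bcl11b. For the difference between cell types they were -0.22 to 0.86 for Pax5, -0.38 to 0.34 for Pou2af1, -0.042 to 0.040 for Bcl11a, -0.097 to 0.30 for Ikzf3 and -0.0049 to 0.062 for Foxo1.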
